A study of Homo sapiens with 8 samples.

Results

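Ribosomal proteins of the cytosolic ribosome are encoded by a family of genes whose transcripts are among the most abundant of any growing cell. Their expression was examined in HepG2 cells, an established human hepatocarcinoma line. Genes were selected by symbol, as those named RPL or RPS followed by a number and, for some, a letter, together with RPLP0, RPLP1, RPLP2 and RPSA, while RPS6 kinases, pseudogenes and RPS4X, which has Y-linked copies, were left out. Of 25603 genes with a value, 78 were retained. These comprised 30 genes of the small (40S) subunit, 46 genes of the large (60S) subunit including the 3 genes of the P stalk, and the 2 paralogs RPL3L and RPS27L. RPL10L and RPL39L were not analysed here.

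Cells of the vehicle group received DMSO (0.2% per the labels), and cells of the EZHi group received UNC1999 and valemetostat tosylate, each at 1 µM. Both inhibitors target EZH1 and EZH2, the enzymes of PRC2 that methylate lysine 27 of histone H3. Exposure lasted 4 days, and each group was represented by 4 RNA-seq libraries of the same cell line, with replicate numbers shared by both groups. All cells were grown with insulin and dexamethasone, and no untreated cells without DMSO were used here.

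In the ribosome, small subunit proteins surround the decoding site and large subunit proteins surround the peptidyl transferase centre, while the acidic P stalk recruits the GTPases that drive translation. The genes are transcribed in a coordinated manner, and most of their mRNAs start with a cytosine followed by a run of pyrimidines, the 5′ terminal oligopyrimidine (TOP) motif, through which mTORC1 and LARP1 adjust their translation and stability. Hepatocytes and liver tumour cells, which secrete large amounts of plasma proteins, hold many ribosomes.

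To show this shared feature, 30 bases spanning the transcription start are given for 4 genes toward the ends of the range of fold changes (RPL26, RPL14, RPS10 and RPL28), for RPL18, and for the pair RPS27 and RPS27L, all with 1 RefSeq start and chosen after their values were seen. Each sequence (RefSeq, GRCh38.p14) is written 5′ to 3′ on the strand of the gene, with 10 bases before the start and 20 bases from it, and capitals mark the C at the start and the uninterrupted pyrimidines that follow. The windows were chr17:8383174-8383203 (minus strand) for RPL26, chr3:40457329-40457358 (plus) for RPL14, chr6:34426050-34426079 (minus) for RPS10, chr19:55385922-55385951 (plus) for RPL28, chr19:48619159-48619188 (minus) for RPL18, chr1:153990752-153990781 (plus) for RPS27 and chr15:63157458-63157487 (minus) for RPS27L.
RPL26: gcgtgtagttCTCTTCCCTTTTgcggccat
RPL14: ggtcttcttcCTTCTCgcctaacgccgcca
RPS10: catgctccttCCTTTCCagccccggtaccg
RPL28: cctcgccttcCTCTTTCCgtctcaggtcgc
RPL18: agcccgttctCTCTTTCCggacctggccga
RPS27: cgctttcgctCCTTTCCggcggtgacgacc
RPS27L: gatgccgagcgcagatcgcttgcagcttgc

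The tract is 12 bases long in RPL26 (log2 fold change -0.22 with EZHi) and 8 bases long in RPL28 (0.12), neither of which was called. It is absent at the annotated start of RPS27L, unlike in RPS27. Of 62 retained genes with an entry in the RefSeq promoter table, 46 (74.2%) had a tract of at least 5 bases at an annotated start, against 6.86% of 12305 protein-coding genes of the deposited table. It was found in 9 of 9 genes with an entry from a list of translation factors and other genes, which were chosen as being of the TOP class. Of 66 genes of mitochondrial ribosomal proteins, 5 had it (7.58%). The letters CTTTCC, searched on both strands between 250 bases before and 50 bases after the start, occurred for 46.8% of the 62 genes and 32.6% of protein-coding genes, and they can overlap the tract itself. Annotated starts were used, so a tract that begins a few bases away from the annotated position was not counted.

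Values are length-corrected log2 levels as deposited, and an estimated FPKM was derived from them to compare levels between genes. Of the 78 genes, 67 had a mean estimated FPKM of at least 100, and 77 passed the minimum of 0.1 for testing. All 10 hepatocyte markers examined were present, with estimated FPKM from 156 for FGB to 16199 for AFP. Of the markers of other cell types, COL3A1 was at 0.0518, whereas LYZ and KRT19 were at 1424 and 414. The others with a value, KRT7 among them, were between 0.751 and 26.3, and PTPRC, CD68 and DCN were not analysed here. Depth cannot be read from such values and is unknown. They are relative to each library, so the number of ribosomes or the amount of RNA per cell was not measured.

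RPL3 was the most abundant of the 78 genes. It encodes a core protein of the 60S subunit near the peptidyl transferase centre. Its log2 level was 16.50, 16.24, 16.45 and 16.34 in vehicle replicates 1 to 4 and 16.47, 16.34, 16.63 and 16.41 in EZHi replicates 1 to 4. The groups overlapped, and the log2 fold change was 0.08 with a 95% interval from -0.14 to 0.30 (limma adjusted p 0.672). RPS2, a 40S protein at the mRNA entry site, followed with mean log2 levels of 16.33 ± 0.11 in vehicle and 16.39 ± 0.11 in EZHi (SD, n = 4 each). RPLP0, the scaffold of the P stalk and a frequent reference gene in quantitative PCR, ranked 3 by level and had log2 levels of 16.09 ± 0.10 and 16.13 ± 0.08 (SD, n = 4 each). RPL4, a large subunit protein lining the exit tunnel, had 15.80 ± 0.12 and 15.75 ± 0.11. Estimated FPKM averaged over the 8 libraries were 3446 for RPL3, 3300 for RPS2, 2767 for RPLP0 and 2199 for RPL4. Differences in level between RPL3 and RPS2 were smaller than the SD of either gene within a group.

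At the other end, 11 genes were under an estimated FPKM of 100 and 7 were under 10. RPS18 and RPS9 encode structural proteins of the 40S subunit, yet RPS18 had log2 levels of 2.96 ± 0.19 in vehicle and 2.90 ± 0.16 in EZHi, and RPS9 had 5.08 ± 0.30 and 5.01 ± 0.20 (SD, n = 4 each; estimated FPKM 0.300 and 1.31). Both were among the 3 of the 78 genes for which 100% of the 50-base windows within exons also occurred on alternate scaffolds of the GRCh38 assembly. The next highest value was 88.9% for RPL9, which had an estimated FPKM of 602. Whether the authors' alignment index held alternate scaffolds is not given in the sources used here, and the part of such copies in the levels was not tested.

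RPS10, RPL36A and RPL17 were at log2 levels of 5.30 ± 0.31, 5.74 ± 0.22 and 7.16 ± 0.41 in vehicle (SD, n = 4 each). Exons of another annotated gene covered 84.0% of the canonical transcript of RPS10, 43.8% of that of RPL36A and 96.9% of that of RPL17. The covering genes were the readthrough genes RPS10-NUDT3, RPL36A-HNRNPH2 and RPL17-C18orf32, which join each gene to its neighbour. RPL26 (65.3% covered) had a log2 level of 9.02 ± 0.37 (SD, n = 4) in vehicle. A covered exon did not always go with a low level, as RPL10, RPL38 and RPL30 (53.7%, 59.0% and 51.4% covered) had mean log2 levels of 14.16, 13.03 and 12.68. The authors counted reads without regard to strand, and the part of overlap in these levels was not tested. Copies elsewhere in the genome were the rule for the family, since 76 of 78 genes had at least 1 annotated pseudogene and 1570 such pseudogenes were annotated, so reads shared between a gene and its copies could be lost. The 276 ribosomal protein pseudogenes with a value summed to an estimated FPKM of 4125, against 67463 for the 78 genes.

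**Figure D1:**
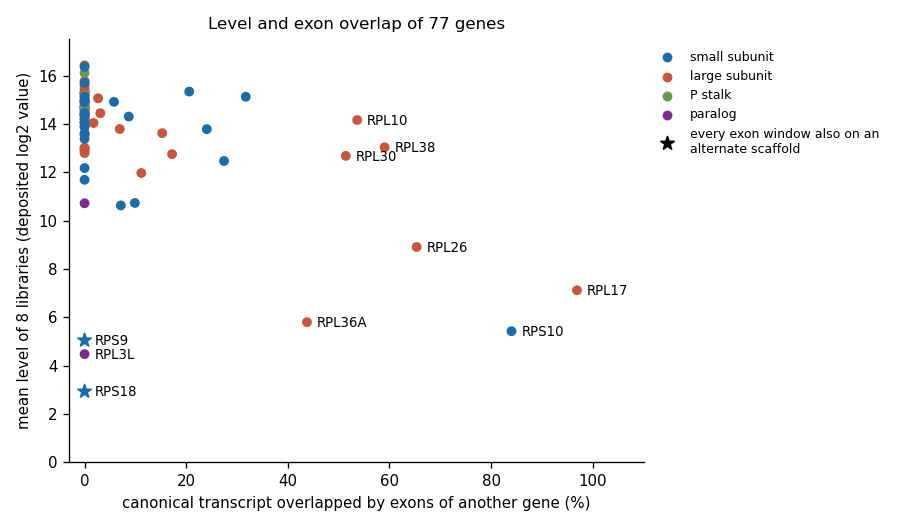
Mean deposited log2 level over 8 libraries (vertical axis) against the percentage of the canonical transcript that lies within exons of another gene (horizontal axis) for 77 of the 78 genes, coloured by role. Stars mark RPS9 and RPS18, for which 100% of exon windows recur on alternate scaffolds, and 70 genes lie above a log2 level of 10.

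To determine whether EZH1/2 inhibition changed expression of these genes, groups were compared with limma over 20153 genes, of which 8.85% were called higher and 4.27% lower in EZHi (adjusted p under 0.05). Of the 77 ribosomal protein genes tested, 1 was called higher and 0 were called lower. The gene called higher was RPL3L. Of the other 76 genes, 0 had an unadjusted p under 0.05, the smallest unadjusted p was 0.170 and the smallest adjusted p was 0.396, both for RPL22. Vehicle and EZHi values were fully separated for 1 of the 77 genes, again RPL3L, compared with 18.6% of all genes tested.

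RPL3L encodes a paralog of RPL3 known from heart and skeletal muscle, where it replaces RPL3 in part of the ribosomes. It lies on GRCh38 chromosome 16, 1943974 to 1957606 (minus strand, protein-coding, ENSG00000140986). Its log2 level was 4.20, 4.11, 4.18 and 3.97 in vehicle replicates 1 to 4 and 4.84, 4.51, 5.14 and 4.88 in EZHi replicates 1 to 4. All EZHi libraries were above all vehicle libraries, and each was above the vehicle library of the same number. The mean rose from 4.11 ± 0.11 to 4.84 ± 0.26 (SD, n = 4 each), corresponding to 0.73 ± 0.14 (SE) on the log2 scale, with a 95% interval from 0.42 to 1.04 (limma adjusted p 0.00697), or 1.66-fold. This call was kept in 8 of 8 fits that each left out 1 library, in which the fold change ranged from 0.63 to 0.84 on the log2 scale.

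The rise of RPL3L took place at a low level, from an estimated FPKM of 0.678 to 1.13. RPL3 remained 4942 times as abundant as RPL3L in vehicle and 3128 times in EZHi on the same scale. At such levels the regularized log applied by the authors shrinks differences, and the fold change of RPL3L may be understated. With the minimum raised to an estimated FPKM of 1, RPL3L was removed and 0 of 75 genes were called by limma (0 at an unadjusted p under 0.05, smallest p 0.171). Of the annotated neighbours of RPL3L, chosen after their values were seen, MSRB1 (a selenoprotein reductase) and NDUFB10 (a complex I subunit) had log2 fold changes of 0.12 and -0.033 (limma adjusted p 0.330 and 0.854). RPS2, which lies next to them, had 0.065 (limma adjusted p 0.733).

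RPS27L is the other paralog and encodes a protein closely similar to that of RPS27. Its log2 level was 10.82, 10.95, 10.56 and 10.77 in vehicle and 10.56, 10.81, 10.52 and 10.78 in EZHi. The groups overlapped, and the log2 fold change was -0.11, with a 95% interval from -0.33 to 0.11 (limma adjusted p 0.542). RPS27 itself had a log2 fold change of -0.029 with an interval from -0.22 to 0.17.

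**Figure D2:**
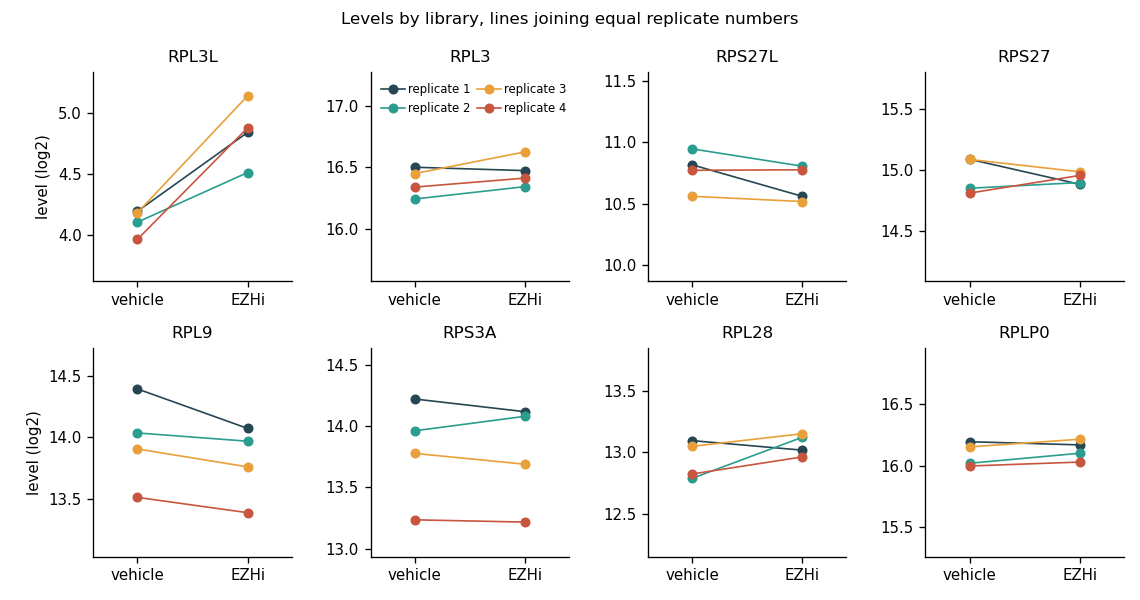
Deposited log2 levels (vertical axes, each spanning the same range) of 8 genes in the vehicle and EZHi libraries, with lines joining libraries of equal replicate number. RPL3L is higher in each EZHi library than in any vehicle library, whereas the lines of RPL9 and RPS3A keep apart by replicate number.

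For the remaining genes, changes were small compared with the spread between libraries within a group. That spread includes what libraries of equal number share, so it does not show that the changes are small for paired samples. The log2 fold changes of the 76 genes not called ranged from -0.22 for RPL26 to 0.25 for RPS10. In this fit, which does not use replicate numbers, the 95% interval lay within 0.5 on either side of 0 for 69 of them and within 0.25 for 22. Of the 77 genes tested, 42 had a positive and 35 a negative fold change, 60 were within 0.1 of 0 on the log2 scale, and 75 had a fold change smaller than the pooled SD within groups. That SD had a median of 0.14 and ranged from 0.081 to 0.42. The median log2 fold change was 0.0082, compared with -0.0077 over all genes tested. Without 1 library at a time, it ranged from -0.036 without vehicle replicate 4 to 0.065 without EZHi replicate 4.

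Small subunit genes (29 tested) had a median log2 fold change of 0.0082 and ranged from -0.21 for RPS15A to 0.25 for RPS10. Large subunit genes (46 tested, P stalk included) had a median of 0.010 and ranged from -0.22 to 0.12. In both subunits 0 genes were called and 0 had an unadjusted p under 0.05 (limma). The 28 genes whose introns host snoRNAs, small RNAs that guide modification of ribosomal RNA, had a median of 0.0067, and the 49 other genes had 0.0082.

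**Figure D3:**
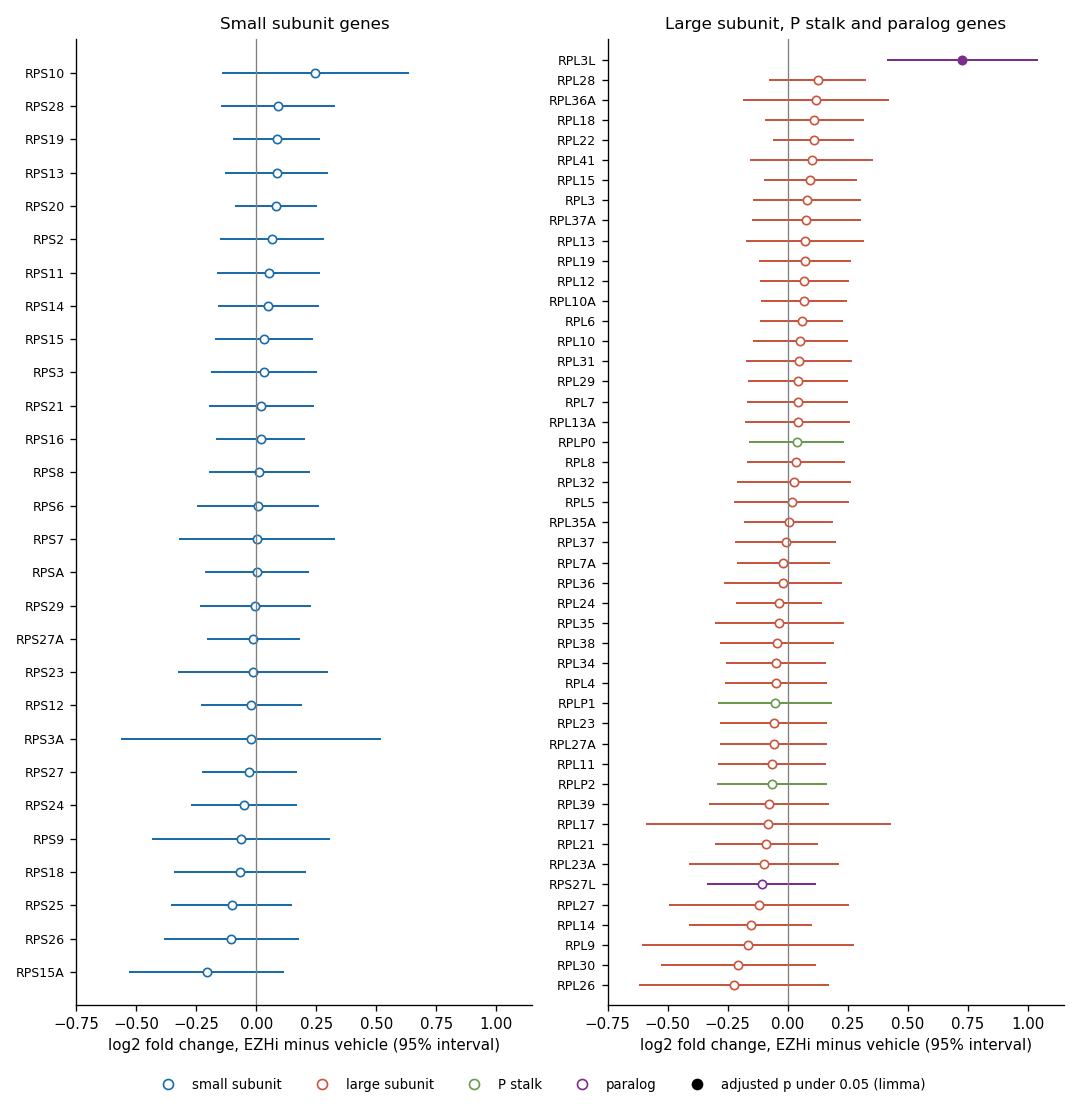
Log2 fold change of EZHi against vehicle (horizontal axes, lines show 95% intervals from limma, 4 libraries per group) for 75 of the 77 genes tested, namely 28 small subunit genes and 47 large subunit, P stalk and paralog genes. RPL3L, with a fold change of 0.73, is the filled point, and the intervals of the other genes drawn include 0.

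Among small subunit genes, RPS10, a 40S protein that is ubiquitinated when ribosomes collide, had log2 levels of 5.53, 5.49, 4.86 and 5.32 in vehicle and 5.87, 5.47, 5.36 and 5.49 in EZHi. Vehicle replicate 3 was the lowest of the 8 libraries, and the log2 fold change was 0.25 with an interval from -0.14 to 0.63 (limma adjusted p 0.413). RPS15A, a protein of the 40S body, had log2 levels of 11.15, 10.81, 10.98 and 10.40 in vehicle and 10.72, 10.72, 10.55 and 10.51 in EZHi. Vehicle replicate 4 was below all EZHi libraries while the other vehicle libraries were above them, and the log2 fold change was -0.21 (interval -0.53 to 0.11, limma adjusted p 0.408). This value was -0.35 without vehicle replicate 4 and -0.10 without vehicle replicate 1.

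Among large subunit genes, RPL26 had the most negative value. RPL26 encodes a protein near the exit tunnel. Its log2 level was 9.55, 8.85, 8.97 and 8.71 in vehicle and 8.86, 9.03, 8.54 and 8.77 in EZHi. Vehicle replicate 1 stood above the other 7 libraries, and the log2 fold change moved from -0.22 (limma adjusted p 0.471) to -0.047 without it. RPL30 had log2 levels of 13.20, 12.67, 12.85 and 12.41 in vehicle and 12.47, 12.62, 12.65 and 12.57 in EZHi, so that the vehicle libraries were spread on either side of the EZHi libraries (log2 fold change -0.21, limma adjusted p 0.412). Without vehicle replicate 1, the fold change of RPL30 was -0.068. RPL28 had the most positive value of the large subunit genes proper, 0.12 with an interval from -0.07 to 0.32 (limma adjusted p 0.418), from a log2 level of 12.94 ± 0.16 to 13.06 ± 0.09 (SD, n = 4 each). RPL36A had 0.12 with an interval from -0.18 to 0.42 (limma adjusted p 0.639).

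In the P stalk, RPLP0 binds the ribosome and carries dimers of RPLP1 and RPLP2. Log2 levels of RPLP1 were 14.95, 14.56, 14.81 and 14.60 in vehicle and 14.72, 14.65, 14.80 and 14.54 in EZHi, and those of RPLP2 were 15.25, 15.23, 15.40 and 15.01 in vehicle and 15.22, 15.10, 15.28 and 15.03 in EZHi. The groups overlapped for both genes. Log2 fold changes were 0.037 for RPLP0 (interval -0.16 to 0.23), -0.054 for RPLP1 (interval -0.29 to 0.18) and -0.065 for RPLP2 (interval -0.29 to 0.16), with limma adjusted p of 0.840, 0.803 and 0.745.

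Libraries of equal replicate number tended to vary together for these genes, as they did for others. The median share of the within-group spread that libraries of equal number had in common was 79.9% for the 77 genes, 72.5% for all genes tested and 85.4% for other genes at an estimated FPKM of at least 100, where unrelated libraries would give 50% on average. RPS3A, a 40S protein, illustrates this pattern, with log2 levels of 14.22, 13.96, 13.78 and 13.24 in vehicle and 14.12, 14.08, 13.69 and 13.22 in EZHi. Its share was 98.5%, and its log2 fold change was -0.023 (interval -0.56 to 0.51). With replicate number as a block, as described below, the interval was -0.14 to 0.096. Libraries numbered 1 and 2 exceeded those numbered 3 and 4 in both groups for 7 genes, among them RPS3A, RPS7, RPL9, RPL27, RPS26 and RPL17 (chosen after their values were seen), or 9.09% of the 77, compared with 12.0% of all genes tested and 25.3% of the other genes at 100 FPKM and over.

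The comparison was therefore repeated with replicate number as a block, under which 14.9% of all genes were called higher and 15.1% lower. Of the 77 genes, 1 was called higher, RPL3L (limma adjusted p 0.00233), and 1 was called lower, RPL9. RPL9, a large subunit protein, had log2 levels of 14.39, 14.04, 13.91 and 13.51 in vehicle and 14.07, 13.97, 13.76 and 13.39 in EZHi. Each EZHi library was below the vehicle library of the same number, by a mean of -0.16 on the log2 scale, while the groups overlapped. The limma adjusted p of RPL9 was 0.657 without and 0.0484 with the block. Scaling by the median of ratios with the block gave 0.0386, with 15.2% of all genes called higher and 15.8% lower. RPL9 was not called when libraries were scaled in any of the 3 other ways described below. Of the 77 genes, 5 were higher in all 4 pairs (among them RPL3L, RPL10, RPL15 and RPL22) and 4 were lower in all 4 pairs (RPL4, RPL9, RPL23 and RPL39), against 20.6% and 24.2% of all genes tested.

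Because these transcripts are so abundant, their share of each library was determined. The 78 genes held 10.48%, 9.63%, 10.15% and 9.33% of the total estimated FPKM in vehicle replicates 1 to 4 and 10.63%, 10.52%, 10.88% and 9.99% in EZHi replicates 1 to 4. The share was higher in EZHi in 4 of 4 pairs, although the ranges of the groups overlapped, and averaged 9.90% ± 0.51 in vehicle and 10.51% ± 0.37 in EZHi (SD, n = 4 each). The difference of 0.61 percentage points exceeded the pooled SD of 0.45, and ranged from 0.42 without vehicle replicate 4 to 0.80 without vehicle replicate 1. Weighted by transcript length, as for reads, the share was 5.78% ± 0.34 and 6.15% ± 0.25 (SD, n = 4 each). The median log2 level of the genes was 14.25 ± 0.14 in vehicle and 14.26 ± 0.10 in EZHi (SD, n = 4 each), so the share was higher while the median level differed by 0.0093. The total of estimated FPKM, by which the share is divided, was lower in EZHi by a mean of 0.071 on the log2 scale. The parts of the genes and of this total in the higher share were not separated.

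Single libraries moved the family as a whole. The median deviation of the 77 genes from their own mean over 8 libraries was 0.10, -0.11, 0.087 and -0.13 in vehicle replicates 1 to 4, and 68, 17, 62 and 3 of the 77 genes were above their mean in these libraries. In EZHi the corresponding deviations were 0.017, 0.015, 0.11 and -0.10, with 46, 42, 59 and 14 genes above their mean. Both libraries numbered 4 were thus low and both numbered 3 were high for most of these genes. The median deviation over all genes tested stayed between -0.013 and 0.0042. The other 1142 genes at an estimated FPKM of at least 100 had median deviations above 0 in all vehicle libraries (0.034 to 0.094) and below 0 in all EZHi libraries (-0.100 to -0.022).

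**Figure D4:**
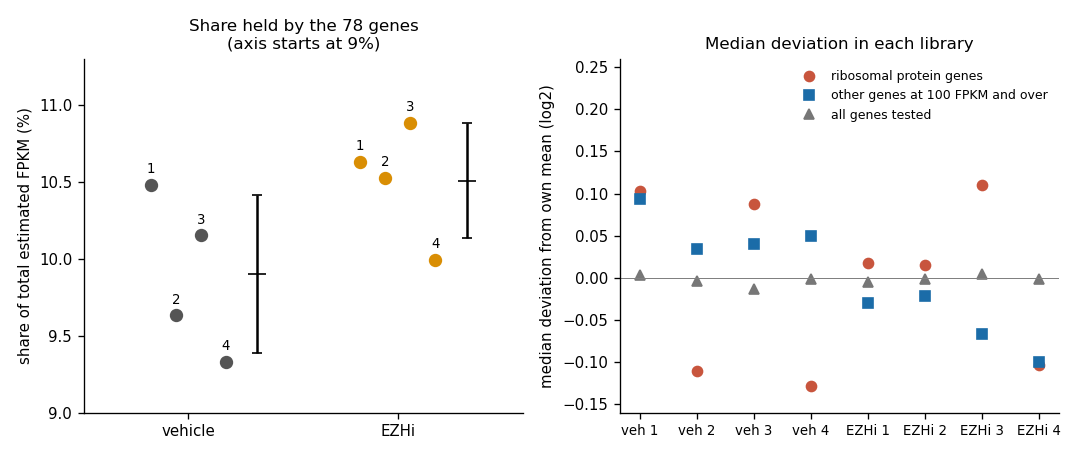
Left, share of total estimated FPKM (%) held by the 78 genes in each library, with replicate numbers above the points and the mean ± SD of 4 libraries beside them. Right, median deviation (log2) of the 77 tested genes, of 1142 other genes at 100 FPKM and over, and of all tested genes from their own means in each library, in which the ribosomal protein genes range from -0.13 to 0.11 and all tested genes stay near 0.

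Relative to other genes of similar level, the family had a higher median fold change. The 67 genes at an estimated FPKM of at least 100 had a median log2 fold change of 0.017, compared with -0.11 for the other 1142 genes of this class, of which 17 were called higher and 125 lower (limma). With the replicate block, 78 of these other genes were called higher and 445 lower (39.0%), against 15.1% lower over all genes, while 0 and 1 of the 67 ribosomal protein genes were. This excess of lower calls among the other genes depended on the scaling described below. They had 44 higher and 47 lower with quantile normalization and 36 and 51 with centring, and with the block also applied 182 and 227 with quantile normalization, 173 and 240 with centring and 148 and 306 with the fixed total. The fold changes of the 2 sets share their libraries, and the difference between the sets was not tested.

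How libraries were scaled therefore set the sign of many of these small values. Scaling by the median of ratios moved EZHi against vehicle by -0.0032 on the log2 scale, scaling to a fixed total of estimated FPKM by 0.071, and centring on genes at or above an estimated FPKM of 10 by 0.095. The median log2 fold change of the 77 genes was 0.0051 with the median of ratios, 0.035 with quantile normalization, 0.079 with the fixed total and 0.10 with centring, and the corresponding medians of all genes tested were -0.011, -0.060, 0.063 and 0.088. The number of the 77 genes with a positive fold change went from 42 (54.5%) as deposited to 41 (53.2%), 49 (63.6%), 64 (83.1%) and 67 (87.0%) in the same order. For all genes tested, this percentage was 48.0% as deposited and 47.4%, 38.3%, 63.6% and 68.7% under the 4 scalings. A total of 31 of the 77 genes had a positive value under at least 1 scaling and a negative value under another.

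Of the genes whose sign changed, RPS9 and RPS18 moved most between scalings. RPL3L and RPS10, which are also at low levels, moved by a similar amount (0.30 and 0.29 on the log2 scale, against 0.30 for RPS9 and 0.27 for RPS18) and stayed positive. RPS9 had log2 fold changes of -0.065 as deposited, -0.27 with quantile normalization and 0.031 with centring, and RPS18 had -0.068, -0.25 and 0.027. RPL36A had 0.12, -0.046 and 0.21, RPS2 had 0.065, -0.027 and 0.16, and RPL17 had -0.082, -0.15 and 0.013 in the same order. The gap between the 77 genes and the other genes at 100 FPKM and over was 0.11 as deposited. A scaling by a constant per library moves both medians equally and cannot change this gap. With quantile normalization, which can change it, the gap was 0.037. Without the block, 1 gene (RPL3L) was called under each of these scalings.

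**Figure D5:**
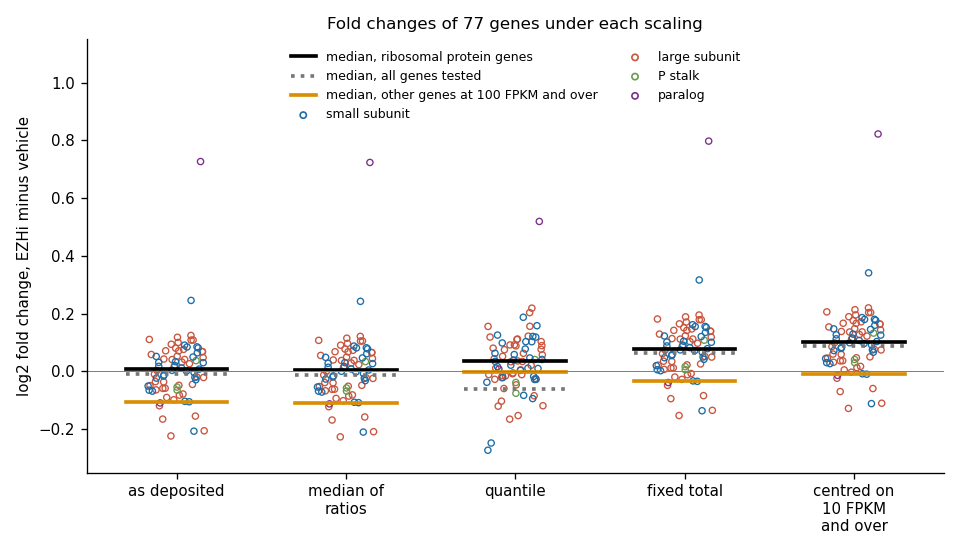
Log2 fold changes of EZHi against vehicle (vertical axis) of 77 genes under 5 scalings (horizontal axis), with 1 point per gene coloured by role and lines for the medians of these genes, of all genes tested and of other genes at 100 FPKM and over. The median of the ribosomal protein genes rises from 0.0082 as deposited to 0.10 with centring, and RPL3L lies above all other genes under each scaling.

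The number of genes called rose when the block was combined with a scaling that moved the family upwards. These combinations were chosen after the data were seen. With quantile normalization and the block, 6 of the 77 genes were called higher and 0 lower, where 13.7% of all genes tested were called higher. With centring and the block, 14 were called higher and 0 lower, where 22.6% of all genes were called higher. With the fixed total and the block, 14 were called higher and 0 lower, where 19.6% of all genes were called higher. As shares of the 77 genes, none of the counts called higher exceeded the percentage over all genes. In the same order of combinations, 2824, 1368 and 1704 of the 20153 genes tested were called lower. The 6 genes called with quantile normalization, among them RPL22, RPL3L, RPL28, RPS20 and RPL18, were also called in the 2 other combinations, which had 12 genes in common. Outside RPL3L their changes were small, for example 0.22 for RPL22 (limma adjusted p 0.00434), a 60S protein that also binds small viral RNAs, and 0.20 for RPL28 (limma adjusted p 0.0141) with quantile normalization and the block.

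Genes that work with the ribosomal proteins were examined next. FAU, which encodes a ubiquitin-like fusion of RPS30, and RACK1, the scaffold on the 40S head, had log2 fold changes of -0.19 and -0.028, and neither was called (limma, 0 at an unadjusted p under 0.05). RPS4X had log2 levels of 14.84 ± 0.10 in vehicle and 14.81 ± 0.07 in EZHi (SD, n = 4 each), and counting it with the family left the number called at 1. Of 5 paralogs outside the selection that were tested, 1 was called higher. This was RPL22L1, a paralog of RPL22 whose expression RPL22 is known to repress. RPL22L1 had log2 levels of 9.24, 9.28, 9.37 and 9.44 in vehicle and 9.52, 9.54, 9.66 and 9.81 in EZHi, without overlap, and a log2 fold change of 0.30 ± 0.08 (SE, limma adjusted p 0.0393). The call of RPL22L1 was lost without any 1 of 6 of the 8 libraries, where its adjusted p reached 0.108, as well as without the minimum on levels (0.0502), and was kept with the block (0.00156). RPL22 itself had 0.11 (interval -0.06 to 0.27, limma adjusted p 0.396).

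Of 15 translation factors and other genes chosen as having TOP mRNAs, 0 were called in either direction (limma, 0 at an unadjusted p under 0.05). Their median log2 fold change was -0.048. Of 41 ribosome biogenesis genes, 0 were called higher and 1 lower, SBDS, which releases EIF6 from the 60S subunit. SBDS had log2 levels of 9.59, 9.69, 9.75 and 9.65 in vehicle and 9.44, 9.47, 9.35 and 9.36 in EZHi, and a log2 fold change of -0.26 (limma adjusted p 0.0223). The call of SBDS was lost with quantile normalization, centring and the fixed total, where its adjusted p was 0.0943, 0.114 and 0.139. The median of this list was -0.076 as deposited, and 0.026 with quantile normalization and 0.019 with centring. With the block, 0 of these genes were called higher and 5 lower (12.2%, against 15.1% of all genes). The direction was not kept when the block was combined with quantile normalization (2 higher and 2 lower), centring (5 and 2) or the fixed total (3 and 2).

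Of 21 regulators of TOP mRNAs and TOR signalling, 1 was called higher and 2 lower. EIF4EBP2, a repressor of cap-dependent translation that mTORC1 inactivates, rose, with a log2 fold change of 0.39 (limma adjusted p 0.00333). LARP4 and LARP4B, La-related proteins that bind poly(A) or poly(A)-binding protein and stabilize mRNAs, changed by -0.40 and -0.26 (limma adjusted p 0.00934 and 0.0335). LARP4B was no longer called with quantile normalization, centring or the fixed total (adjusted p 0.146, 0.140 and 0.212), and LARP4 was not with the fixed total (0.0554). With the block, 3 of these genes were called higher and 6 lower (28.6%, against 15.1% of all genes), and higher and lower calls were equal in number when the block was combined with quantile normalization (3 each), centring (4 each) or the fixed total (4 each). Of 11 genes that control transcription or dosage of ribosomal protein genes, 1 was called higher. This was MYCN, a MYC family transcription factor, from log2 levels of 3.82, 3.72, 2.83 and 3.04 in vehicle to 6.17, 6.13, 5.68 and 5.81 in EZHi, a log2 fold change of 2.59 (limma adjusted p 7.72e-05).

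Genes of mitochondrial ribosomal proteins, which build a separate ribosome and are not of the TOP class, were included as a comparison. Of 75 tested, 0 were called higher and 4 lower (MRPL28, MRPL55, MRPL19 and, named after its value was seen, MRPL22, with log2 fold changes from -0.29 to -0.28). The median log2 fold change of the 75 genes was -0.14, compared with -0.096 for the 7738 genes outside the cytosolic family at an estimated FPKM of at least 10, mitochondrial ones included. Lower calls numbered 1 with quantile normalization, 0 with centring and 1 with the fixed total. With the block, 0 were called higher and 30 lower (40%), against 15.1% of all genes and 32.8% of these 7738 genes. The number called lower with the block was 14 with quantile normalization, 9 with centring (where 1 was called higher) and 12 with the fixed total. MRPL28 had log2 levels of 10.86, 10.70, 10.80 and 10.74 in vehicle and 10.51, 10.53, 10.47 and 10.42 in EZHi (limma adjusted p 0.00930), and was not called with quantile normalization (0.0677) or centring (0.0516). The median of the mitochondrial list was -0.071 with quantile normalization and -0.048 with centring, where that of the cytosolic genes was 0.035 and 0.10. The difference between these lists was not tested.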

How the data were processed

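RNA-seq of HepG2 cells was analysed from the table deposited for 8 libraries, 4 vehicle and 4 EZHi, grouped by sample title. Per the study's methods, the authors aligned paired reads to hg38 (HISAT2 2.2.1), counted them over exons without strand (HTSeq 0.9.1), applied the regularized log of DESeq2 1.40.2 and corrected for mean transcript length, so the deposited values are log2 levels, although the table is named as FPKM (tool versions per the submitters' processing notes). They spanned -6.81 to 19.01. Of 25604 entries, 1 repeated identifier was removed. Lengths and exon overlap came from GENCODE 44.

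Estimated FPKM was 2 to the deposited value divided by 25.6, the mean over libraries of the length-weighted sum in units of 1e6 (24.4 to 27.3), which reflects the common scale and not depth, so no counting interval is given. Genes at 0.1 or above were tested with limma 3.58.1 in R 4.3.3 (group only, trended prior, two-sided, Benjamini-Hochberg over 20153 genes, called at adjusted p under 0.05), checked on simulated data. Alternatives were the replicate block, 4 other scalings, other filters, a pseudocount of 0.5 (log2(FPKM + 0.5)), no trended prior, and leaving out each library. Other software was Python 3.11.15 with pandas 2.3.3, numpy 2.4.6 and matplotlib 3.10.9.

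Libraries of equal number deviated together from their group means (r across genes of 0.310, 0.558, 0.634 and 0.216), and every pair exceeded 0.1, so the numbers were taken to pair the samples. Between libraries of different number in the 2 groups, the highest r was 0.199 for numbers 1 and 2 and 0.0762 for numbers 3 and 4. The labels do not name separate cultures, and p-values then measure the spread between these samples. Named genes were those called (up to 8 per direction with the smallest adjusted p), the 4 largest fold changes in each direction, the 4 highest and 4 lowest levels, the P stalk, the L-suffixed paralogs, up to 5 genes whose sign differed most between scalings, and up to 3 called genes per related list. RPL18, RPL14, RPL22, RPS27, RPS3A and genes listed by pattern were named after values were seen. Values of some single genes are not reported here. The genes, lists and naming rule were chosen with earlier results of these data known.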

Additional observations from a re-analysis of the deposited data

Results flagged for a closer look

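In 68 groups of 4 libraries examined, 4 held a library whose gap to the nearest other, as a fraction of the whole range, was above Dixon's 95% critical value, where about 3.4 (5%) are expected by chance. None concerned a cytosolic ribosomal protein gene. For EIF4EBP2, vehicle replicate 1 was at a log2 level of 9.55 and the other vehicle libraries were between 9.37 and 9.40 (gap over range 0.833). For LARP4, EZHi replicate 3 was at 9.87 and the others between 10.08 and 10.11 (0.905). For MRPL55, vehicle replicate 3 was at 9.59 and the others between 9.77 and 9.78 (0.927). For MRPL19, vehicle replicate 4 was at 10.59 and the others between 10.78 and 10.79 (0.927).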

How the results depend on the processing

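The call of RPL3L was kept, and its fold change stayed positive, under each alternative in which it was tested. The median log2 fold change of the ribosomal protein genes was 0.0082 as deposited and between 0.0051 and 0.10 under the other scalings. Centring moved it by 0.095, while the pooled SD of their median deviation within groups was 0.11. That SD includes spread shared by libraries of equal number, so it does not show that the shift is small for paired samples. As deposited, 2644 genes, 1 ribosomal protein gene and 10 genes of the related lists were called. With the replicate block, which pairs libraries of equal number, these numbers became 6051, 2 and 49. The block combined with the median of ratios gave 6231, 2 and 51, with quantile normalization 5593, 6 and 28, with centring 5917, 14 and 28, and with the fixed total 5660, 14 and 28 (combinations chosen after seeing the data). Without the block, the related lists had 6 calls with quantile normalization and 4 with centring or the fixed total. With the minimum at an estimated FPKM of 1, 1579 genes and 0 ribosomal protein genes were called, since fewer genes were tested and RPL3L was removed. Leaving out 1 library gave 4 to 11 calls in the related lists, and a small minus large subunit median of -0.033 when EZHi replicate 2 was left out and 0.022 when EZHi replicate 4 was, at the extremes, against -0.0022 with all libraries. The related lists had 4 calls without EZHi replicate 3 or 4 and 6 without vehicle replicate 1 or 2. Where a scaling or a left-out library changed a count, the cause was not tested beyond what is stated. Values without counts leave depth unknown, and the regularized log compresses low genes such as RPL3L and RPS18. With 4 libraries per group and no block, the 95% interval lay within 0.25 on either side of 0 for 22 of the 76 genes not called. With the block, intervals were narrower for most of these genes, as for RPS3A, and most lay within 0.25 of 0. They were -0.064 to 0.23 for RPL3, -0.076 to 0.20 for RPS2, -0.094 to 0.17 for RPLP0 and -0.17 to 0.074 for RPL4. Some stayed wide with the block, such as -0.52 to 0.069 for RPL26 and -0.45 to 0.32 for RPS9.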
